A study of Mus musculus with 6 samples.

Results

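Goblet cell genes were examined in the colon of mice with dextran sulfate sodium (DSS) colitis, as 9 genes chosen by name: *Muc2*, *Fcgbp*, *Zg16*, *Tff3*, *Agr2*, *Spdef*, *Atoh1*, *Spink4* and *Clca1*. Each of them is 1 row of the 18477 genes in the count table, and all 9 passed the filter on low counts. Male C57BL/6 mice aged 6 to 8 weeks received PBS (DSS group, n = 3) or the gut bacterium *B. vulgatus* (DSS+BV group, n = 3) by gavage for 14 days, and both groups drank 2% (w/v) DSS, a polymer that injures the colon epithelium, from day 8 to day 14. Both groups carried the DSS injury, and no mouse without DSS was among the 6 libraries, so the values compare injured colons with and without the bacterium. One RNA-seq library was made from colon tissue of each mouse, and the stretch of colon taken is not given in the sources used here. In such bulk tissue, fewer goblet cells and less RNA per goblet cell cannot be told apart.

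Goblet cells are the secretory cells of the intestinal epithelium that fill granules with the mucin *Muc2* and release it as the mucus that keeps bacteria away from the epithelial surface. The transcription factor *Atoh1* directs progenitors to the secretory lineages, *Spdef* acts later in goblet cell maturation, *Agr2* helps *Muc2* to fold in the endoplasmic reticulum, and *Fcgbp*, *Clca1*, *Zg16* and *Tff3* are secreted with it. Colitis caused by DSS is known for loss of this mucus layer.

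The genes lie on chromosomes 3, 4, 6, 7, 12 and 17 of GRCm38.p6. *Muc2* lies at chr7:141690340-141754691 on the plus strand, *Fcgbp* at chr7:28071236-28120864 on the plus strand and *Zg16* at chr7:127050156-127052675 on the minus strand. *Spdef* (chr17:27714446-27731003) and *Tff3* (chr17:31125306-31129611) are both on the minus strand of chromosome 17. *Agr2* (chr12:35992925-36004081), *Atoh1* (chr6:64729125-64731245) and *Spink4* (chr4:40920056-40931395) are on the plus strand, and *Clca1* (chr3:145004537-145032776) is on the minus strand. No exon of the 9 genes overlapped an exon of another gene in the basic GENCODE M21 annotation of that build.

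RefSeq promoter sequence of the same build was matched for 5 of the 9 genes, *Muc2*, *Fcgbp*, *Agr2*, *Spdef* and *Atoh1*. The 250 bases before the start are shown for *Muc2* and *Spdef*, whose counts stayed closest to each other among the genes of the set they share in the results, and for *Fcgbp*, the matched gene of the other set. Capitals mark any of 4 motifs searched on both strands: CAGCTG and CAGATG, E-boxes of the kind read by *Atoh1* and related factors, CGGAT, a core of the ETS sites that *Spdef* prefers, and TTTATG, a core read by the intestinal Cdx proteins. The *Muc2* window is chr7:141690090-141690339, the *Spdef* window is chr17:27728952-27729201, on the minus strand and inside the span given for the gene, and the *Fcgbp* window is chr7:28070986-28071235.
Muc2: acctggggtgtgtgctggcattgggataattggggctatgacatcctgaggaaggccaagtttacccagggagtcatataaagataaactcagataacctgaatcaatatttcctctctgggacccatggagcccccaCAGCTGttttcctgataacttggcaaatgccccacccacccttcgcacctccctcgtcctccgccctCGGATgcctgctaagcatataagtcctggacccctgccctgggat
Spdef: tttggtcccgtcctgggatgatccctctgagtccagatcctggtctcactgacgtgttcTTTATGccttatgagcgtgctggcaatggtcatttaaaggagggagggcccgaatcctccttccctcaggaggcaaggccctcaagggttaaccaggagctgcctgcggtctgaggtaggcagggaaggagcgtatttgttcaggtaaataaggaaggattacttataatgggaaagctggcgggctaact
Fcgbp: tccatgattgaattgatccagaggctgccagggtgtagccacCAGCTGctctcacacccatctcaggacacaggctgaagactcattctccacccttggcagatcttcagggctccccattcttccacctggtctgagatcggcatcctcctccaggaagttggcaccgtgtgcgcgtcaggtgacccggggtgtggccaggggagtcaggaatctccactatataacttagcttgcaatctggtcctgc
The *Muc2* window held CAGCTG with its first base 112 bases before the start and CGGAT 45 bases before it. The *Fcgbp* window held CAGCTG at 208 bases, and the *Spdef* window held TTTATG at 191 bases. TTTATG was also found on the opposite strand of the *Agr2* window, at 47 bases, and none of the 4 motifs was found in the *Atoh1* window. Among 32817 RefSeq windows of 250 bases, 13.0% held CAGCTG, 14.5% held CAGATG, 13.4% held CGGAT and 10.8% held TTTATG, so these letters are common and their presence is a description.

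The 6 libraries held between 15293276 and 17254343 expected counts. The 9 genes had between 269 and 327415 counts per library, all of them whole numbers, and counting error was at most 6.10% of a value. Mice of 1 group differed far more than that, so the limit on every comparison was the spread between 3 mice. Libraries also stood apart in genes that mark the position along the colon. *Hoxd13*, a homeobox gene of the hindmost gut, had 98.7, 1.06 and 42.8 CPM in DSS 1, 2 and 3, against 61.9, 35.1 and 0.0632 CPM in DSS+BV 1, 2 and 3. DSS 2 and DSS+BV 3 were therefore low for it. CPM is the count relative to the library total after scaling with TMM factors.

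None of the 9 goblet cell genes differed between the DSS+BV and DSS groups beyond the spread between mice. With edgeR's quasi-likelihood test, adjusted over 14579 genes, 0 of 9 genes were called, which needed an adjusted p-value under 0.05 with a log2 fold change beyond 1 in either direction, where 0.0892% of all tested genes were called, all of them lower in DSS+BV. An unadjusted p-value under 0.05 was reached by 0 of 9 genes, against 12.5% of all tested genes (3.4% higher and 9.12% lower). DESeq2 also called 0 of 9, where it called 2.07% of its 15805 genes (0.291% higher and 1.78% lower), and its smallest adjusted p-value among the 9 was 0.260. The groups overlapped for all 9 genes, where 6.36% of all tested genes were higher and 11.3% were lower in every DSS+BV library. Log2 fold changes were above 0 for 5 genes and below 0 for 4, with a median of 0.19 against -0.01 over all tested genes. The edgeR count of calls stayed at 0 without any 1 of the 6 libraries, and the other counts were not rerun that way.

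**Figure D1:**
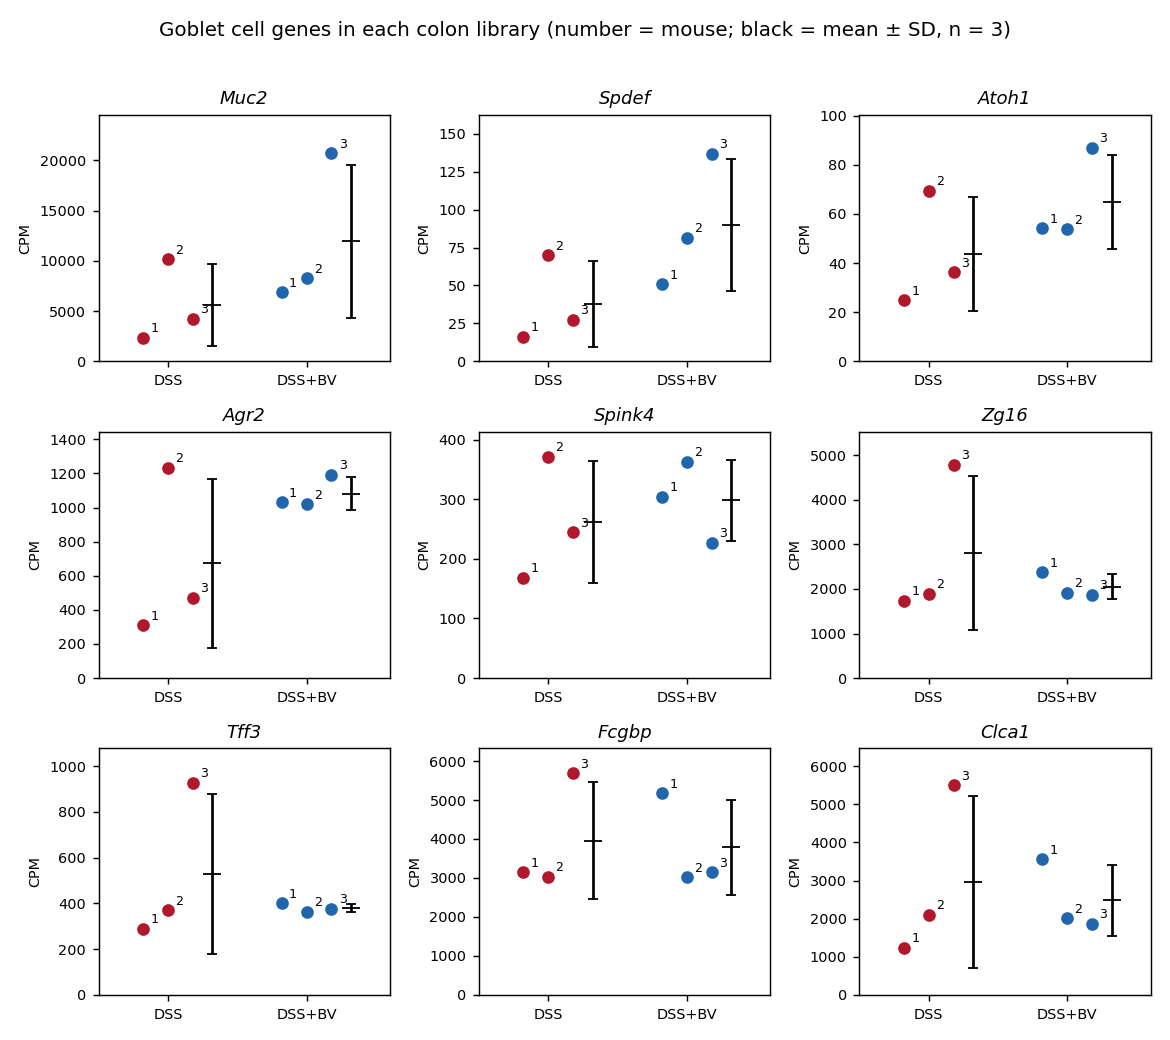
Expression in CPM (linear axis from 0) of the 9 goblet cell genes in each library, with the mouse number beside each point and the mean ± SD of 3 mice in black. The 2 groups overlap in every panel, and 8 of the 9 genes are lowest in DSS 1.

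*Muc2*, the gel-forming mucin, reached 2338, 10165 and 4236 CPM in DSS 1, 2 and 3, against 6874, 8261 and 20688 CPM in DSS+BV 1, 2 and 3. DSS 2 lay above both DSS+BV 1 and DSS+BV 2, and DSS+BV 3 was above every other library. Means were 5580 ± 4083 CPM in DSS mice and 11941 ± 7607 CPM in DSS+BV mice (SD, n = 3 each). Its log2 fold change was 1.10 with an SE of 0.65 (95% interval -0.47 to 2.66), with an edgeR adjusted p-value of 0.534. Its value depended on single mice, at 0.44 without DSS+BV 3, 0.73 without DSS 1 and 1.87 without DSS 2. That interval runs from below 0 to well above the threshold of 1, so 3 mice a group could not tell an unchanged level from a large rise.

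Both transcription factors were measured at far lower levels. *Spdef* had 16.1, 70.0 and 27.4 CPM in DSS 1, 2 and 3, against 51.0, 81.6 and 137 CPM in DSS+BV 1, 2 and 3. DSS 2 was the only DSS library within the range of the DSS+BV group, and the log2 fold change of 1.25 (SE 0.59, 95% interval -0.17 to 2.67) gave the smallest p-value of the 9 genes, 0.0754 before adjustment and 0.443 after it with edgeR. *Atoh1* had 24.9, 69.5 and 36.2 CPM in DSS mice, against 54.1, 53.8 and 87.0 CPM in DSS+BV mice. Here DSS 2 lay above 2 of the 3 DSS+BV libraries, and the log2 fold change was 0.58 (SE 0.40, edgeR adjusted p-value 0.583). Without DSS+BV 3 the log2 fold change was 0.81 for *Spdef* and 0.31 for *Atoh1*, and without DSS 2 it was 2.05 and 1.10. Without DSS 1 it was 0.89 and 0.30.

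*Agr2*, the disulfide isomerase that *Muc2* needs, had 310, 1235 and 472 CPM in DSS 1, 2 and 3, against 1032, 1021 and 1194 CPM in DSS+BV 1, 2 and 3. The 3 DSS+BV libraries lay close together, while DSS 2 was the highest of all 6 and DSS 1 and DSS 3 were well below. Its log2 fold change was 0.69 (SE 0.49, 95% interval -0.48 to 1.86, edgeR adjusted p-value 0.596). It was 1.48 without DSS 2, the highest library, and 0.35 without DSS 1, the lowest.

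The other secreted proteins had another order of libraries than *Muc2*. *Zg16*, a lectin that binds Gram-positive bacteria, had 1740, 1892 and 4788 CPM in DSS 1, 2 and 3, against 2378, 1912 and 1867 CPM in DSS+BV 1, 2 and 3. *Tff3*, a trefoil peptide of epithelial repair, had 289, 370 and 928 CPM in DSS mice, against 400, 363 and 376 CPM in DSS+BV mice. For both genes DSS 3 was far above the other 5 libraries, which lay near each other. Fitted log2 fold changes were -0.45 for *Zg16* (SE 0.42, edgeR adjusted p-value 0.678) and -0.48 for *Tff3* (SE 0.43, edgeR adjusted p-value 0.671). Both directions rested on DSS 3, since without it the values were 0.18 and 0.21.

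*Clca1*, a secreted protease that cuts *Muc2*, had 1235, 2106 and 5505 CPM in DSS 1, 2 and 3, against 3555, 2014 and 1864 CPM in DSS+BV 1, 2 and 3. *Fcgbp*, a large protein linked into the mucus gel, had 3155, 3034 and 5681 CPM in DSS mice, against 5182, 3024 and 3140 CPM in DSS+BV mice. DSS 3 was again highest for both, with DSS+BV 1 next. On the log2 scale the fold change was -0.25 (SE 0.57, edgeR adjusted p-value 0.880) for *Clca1* and -0.07 (SE 0.35, edgeR adjusted p-value 0.953) for *Fcgbp*, and without DSS 3 these were 0.57 and 0.29. *Spink4*, a Kazal-type protease inhibitor of goblet cells, had 168, 371 and 245 CPM in DSS mice, against 304, 363 and 227 CPM in DSS+BV mice. Its log2 fold change of 0.19 (SE 0.32, edgeR adjusted p-value 0.833) was -0.04 without DSS 1, its lowest library.

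**Figure D2:**
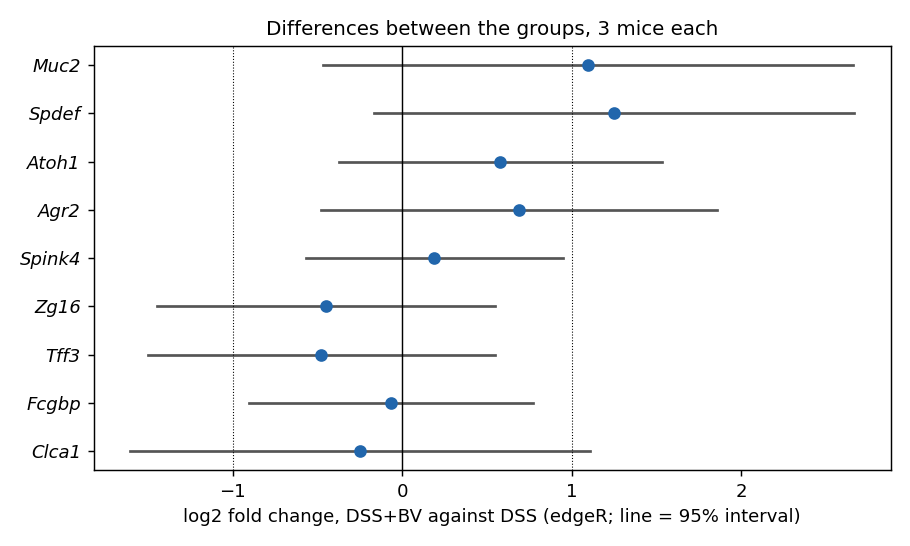
Log2 fold change of DSS+BV against DSS for the 9 genes (points) with 95% intervals (lines) from edgeR, and dotted lines at the threshold of 1 in either direction. Every interval includes 0, and those of *Muc2* and *Spdef* reach furthest above 0.

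Levels between genes were compared per kb of exon in basic GENCODE M21. The median over the 6 libraries was highest for *Zg16* at 2789 CPM per kb, followed by *Agr2* at 1309, *Tff3* at 756, *Spink4* at 692, *Clca1* at 564 and *Fcgbp* at 397 CPM per kb. *Spdef* and *Atoh1* had 31.5 and 25.4 CPM per kb. *Zg16* lay above *Agr2* in every library, with a lowest value of 2551 against a highest of 1575 CPM per kb. From *Agr2* down to *Fcgbp*, each gene overlapped the next over the libraries, as did *Spdef* and *Atoh1*, and both regulators were below the other genes throughout. *Muc2* was left out, since its transcripts in that annotation are partial and the length would be too short.

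The 9 genes fell into sets by how they varied over the libraries. These sets were seen in the values and carry no test. *Muc2*, *Spdef*, *Atoh1* and *Agr2* were below their mean in DSS 1 and DSS 3 and above it in DSS 2 and DSS+BV 3. *Zg16*, *Tff3*, *Fcgbp* and *Clca1* were highest in DSS 3 and below their mean in DSS 1, DSS 2, DSS+BV 2 and DSS+BV 3. Within the first set, the SD over 6 libraries of the log2 ratio of 2 genes was between 0.23 and 0.52 for its 6 pairs, and within the second it was between 0.12 and 0.42 for its 6 pairs. The 16 pairs between the sets had SDs from 0.86 to 1.40. Genes of 1 set therefore kept their ratio within 2.60-fold over all libraries, while a ratio between the sets ranged from 4.35-fold to 14.8-fold. *Spink4* stood between the sets, with SDs of 0.53 to 0.95 against the first and 0.62 to 0.76 against the second. All points share the same 6 libraries.

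**Figure D3:**
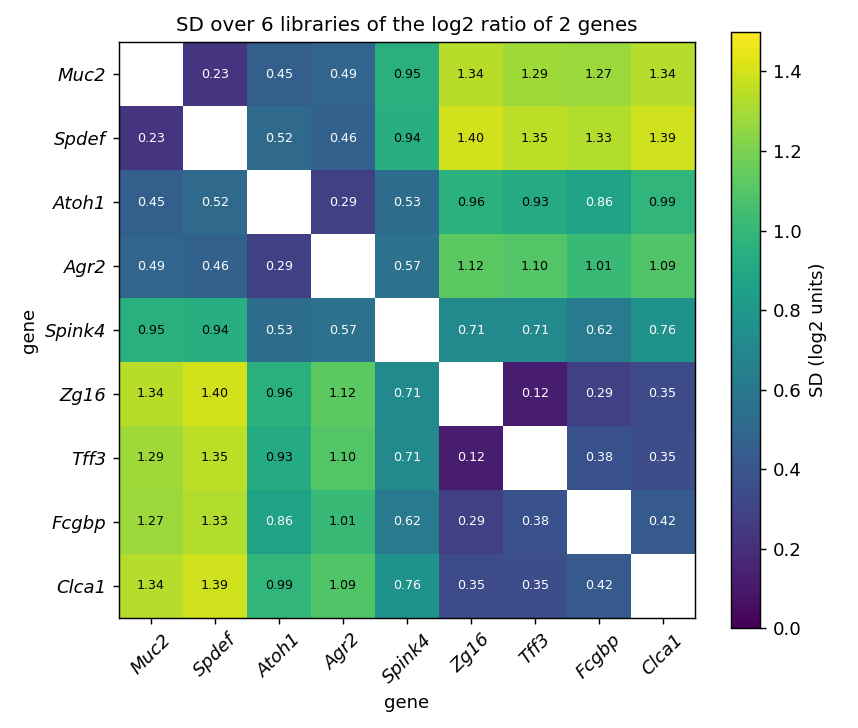
SD over the 6 libraries of the log2 ratio of each pair of goblet cell genes, with the value in each square (log2 units, dark is low). *Muc2*, *Spdef*, *Atoh1* and *Agr2* form a dark block at 0.23 to 0.52, *Zg16*, *Tff3*, *Fcgbp* and *Clca1* another at 0.12 to 0.42, and the pairs between them are at 0.86 to 1.40.

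The steadiest pair was *Zg16* and *Tff3*, whose ratio of CPM ranged 1.21-fold over the libraries while each gene ranged 2.75-fold and 3.21-fold. *Muc2* and *Spdef* ranged 8.85-fold and 8.51-fold, and their ratio 1.53-fold. By contrast, there were 52.8, 20.7 and 129.9 *Clca1* reads per 100 *Muc2* reads in DSS 1, 2 and 3, against 51.7, 24.4 and 9.01 in DSS+BV 1, 2 and 3. This is a 14.4-fold range for the protease against the mucin it cuts, with the lowest ratio in DSS+BV 3 and the highest in DSS 3. *Fcgbp* gave 134.9, 29.8 and 134.1 reads per 100 *Muc2* reads in DSS mice, against 75.4, 36.6 and 15.2 in DSS+BV mice.

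A ratio to *Muc2* within a library does not depend on library scaling, and was compared between the groups for the 8 other genes. The mean log2 ratio was lower in DSS+BV for 7 of them, by -1.48 for *Zg16*, -1.47 for *Tff3*, -1.23 for *Fcgbp*, -1.22 for *Clca1*, -0.94 for *Spink4*, -0.51 for *Atoh1* and -0.25 for *Agr2*. For *Spdef* the mean log2 ratio was higher by 0.22. All 8 ratios share *Muc2*, whose log2 fold change of 1.10 was exceeded only by that of *Spdef*, at 1.25. The directions of the ratios therefore follow from the fold changes above and are not 8 separate results. The groups overlapped for all 8, and the two-sided exact permutation p-values lay between 0.2 and 0.9 (adjusted over the 8 tests, 0.4 to 0.9), where 3 against 3 mice cannot give less than 0.1. These sizes depended on single mice. Without DSS+BV 3 the differences were -0.93 for *Zg16*, -0.98 for *Tff3*, -0.63 for *Fcgbp*, -0.56 for *Clca1*, -0.28 for *Spink4*, -0.25 for *Atoh1*, 0.16 for *Agr2* and 0.34 for *Spdef*. Without DSS 3 they were -0.95 for *Zg16*, -0.90 for *Tff3* and -0.56 for *Clca1*, and without DSS 2 they were -2.25, -2.19 and -1.88 for the same genes. Leaving out each library in turn gave -1.95 (without DSS 2) to -0.63 for *Fcgbp*, -1.28 (without DSS+BV 1) to -0.28 for *Spink4* and 0.053 (without DSS+BV 2) to 0.34 for *Spdef*.

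*Muc2* made up 25.2%, 52.6% and 19.3% of the reads of the 9 genes in DSS 1, 2 and 3, against 34.7%, 48.3% and 69.9% in DSS+BV 1, 2 and 3. The summed level of the 9 genes was 9276, 19312 and 21919 CPM in DSS mice, against 19830, 17093 and 29579 CPM in DSS+BV mice. DSS 1 was the low library, for the sum and for 8 of the single genes, and DSS 2 and DSS 3 reached similar sums through different genes.

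Mice of the DSS group differed more from each other than mice of the DSS+BV group for all 9 genes. The SD of log2 CPM was larger in the DSS group for 9 of 9, where it was larger for 66.6% of all tested genes. It was 1.02 against 0.13 for *Agr2*, 0.89 against 0.07 for *Tff3* and 0.81 against 0.19 for *Zg16*. For *Muc2* the SDs were close, at 1.07 and 0.85, as they were for *Fcgbp*, at 0.51 and 0.43. The median SD was 0.89 in DSS and 0.40 in DSS+BV for the 9 genes, and 0.32 and 0.20 for all tested genes. The genes varied together in sets over the same libraries, so these are not 9 separate results. The difference in spread was not tested, and it rests on 3 mice in each group.

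**Figure D4:**
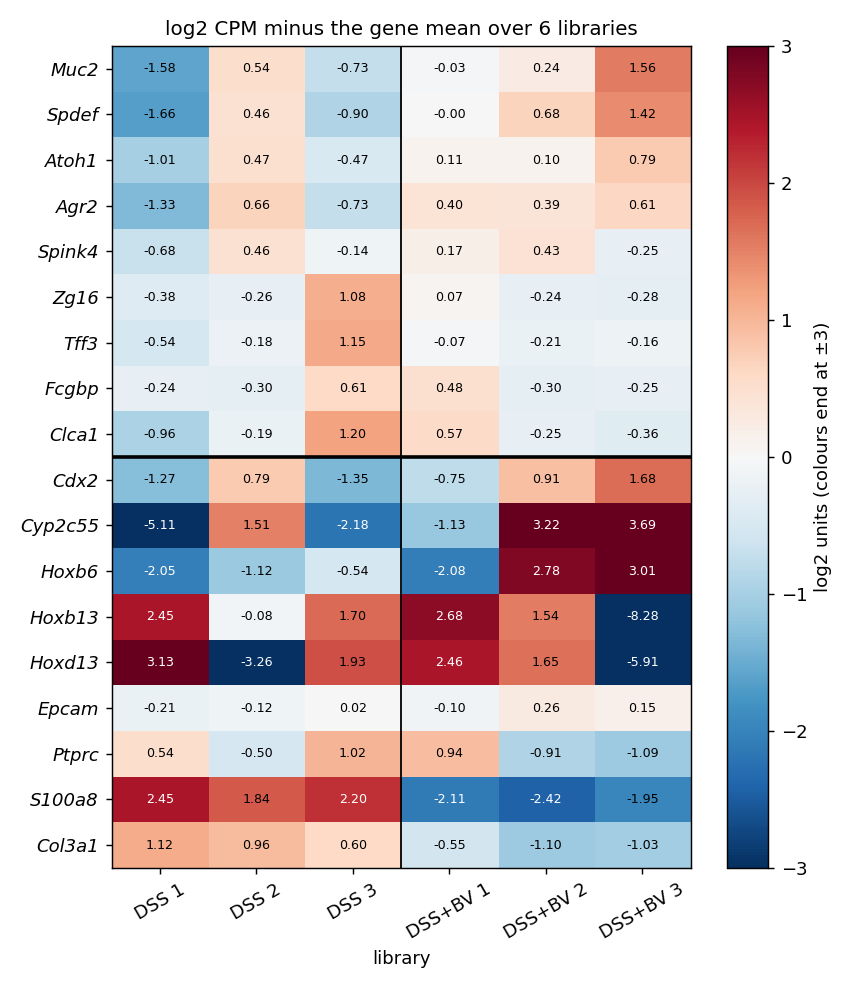
Log2 CPM minus the mean of the gene over the 6 libraries, for the 9 goblet cell genes (above the line) and for genes of colon position, epithelium, leukocytes and fibroblasts (below it), with colours ending at ±3. *Muc2*, *Spdef*, *Atoh1* and *Agr2* are lowest in DSS 1, *Zg16*, *Tff3*, *Fcgbp* and *Clca1* are highest in DSS 3, and *Hoxd13* is lowest in DSS+BV 3 and DSS 2.

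The 2 libraries with the least *Hoxd13*, DSS+BV 3 and DSS 2, were the 2 highest for *Muc2*, *Atoh1* and *Agr2*. For *Spdef* they were not, since DSS+BV 2 at 81.6 CPM lay above DSS 2 at 70.0 CPM. *Cdx2*, an intestinal homeobox gene, had 42.2, 176 and 39.9 CPM in DSS 1, 2 and 3, against 60.4, 192 and 327 CPM in DSS+BV 1, 2 and 3. It was thus high in DSS+BV 3 and DSS 2, and in DSS+BV 2 as well. *Cyp2c55*, a cytochrome P450 gene used as a marker of colon position, had 8.32, 832 and 64.3 CPM in DSS mice, against 133, 2712 and 3774 CPM in DSS+BV mice. With the mean log2 CPM of *Hoxb13*, *Hoxd13* and *Hoxa13* as a covariate in edgeR, chosen after these values were seen, the log2 fold change was 0.56 for *Muc2*, 0.85 for *Spdef*, 0.56 for *Agr2* and 0.33 for *Atoh1*, and 0 of the 9 genes were called. Without the covariate they were 1.10, 1.25, 0.69 and 0.58. The covariate was 6.09, 3.28 and 5.29 in DSS 1, 2 and 3, against 5.96, 4.72 and -2.37 in DSS+BV 1, 2 and 3. It thus chiefly set DSS+BV 3 apart, where *Hoxb13* had 0 counts. Leaving out DSS+BV 3 instead gave log2 fold changes of 0.44, 0.81, 0.61 and 0.31 for the same genes. Other position genes ranked the libraries differently. *Hoxa13*, also a hindgut gene and part of the covariate, had 15.1, 21.0 and 11.1 CPM in DSS 1, 2 and 3, against 15.6, 4.46 and 0.190 CPM in DSS+BV 1, 2 and 3, so DSS 2 was its highest library. *Hoxb6* had 1.08, 2.17 and 3.32 CPM in DSS mice, against 1.05, 34.2 and 40.0 CPM in DSS+BV mice (log2 fold change 3.51, adjusted p-value 0.345 with edgeR and 0.0119 with DESeq2). It set DSS+BV 2 and DSS+BV 3 apart and not DSS 2. How much of the spread belongs to the stretch of colon sampled cannot be told apart from differences between mice.

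Genes of the pan-epithelial list lay on the DSS+BV side. Their log2 fold change was above 0 for 12 of 12, with a median of 0.46. Of the 12, 7 were higher in every DSS+BV library, where 6.36% of all tested genes were. The list included the intestinal homeobox genes *Cdx1* and *Cdx2*. *Cdx2* had the largest log2 fold change of the list, 1.16, and is part of every value set against this list. None of the 12 was called by edgeR or DESeq2. An unadjusted edgeR p-value under 0.05 was found for 5, where 3.4% of all tested genes were higher at that threshold. *Krt18*, a keratin of simple epithelia, had 219, 307 and 311 CPM in DSS mice, against 460, 528 and 377 CPM in DSS+BV mice (log2 fold change 0.71, edgeR adjusted p-value 0.320). The mean log2 CPM of the list was 8.99, 9.27 and 9.06 in DSS 1, 2 and 3, against 9.41, 9.69 and 9.58 in DSS+BV 1, 2 and 3, a difference of 0.46 (exact two-sided permutation p = 0.1, the smallest possible).

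Set against these epithelial genes, the goblet cell genes as a whole had a group difference near 0. The mean log2 CPM of the 9 genes minus that of the pan-epithelial list was -0.50, 0.33 and 0.48 in DSS 1, 2 and 3, against 0.20, -0.19 and 0.18 in DSS+BV 1, 2 and 3. DSS 1 was the lowest and DSS 3 the highest. The group difference was -0.04 (exact two-sided permutation p = 1), and between -0.34 and 0.14 with 1 library left out, with a change of sign without DSS 2, DSS 3 or DSS+BV 2. Relative to epithelium, the differences were 0.94 for *Spdef*, 0.72 for *Muc2*, 0.47 for *Agr2* and 0.21 for *Atoh1*, and -0.76 for *Zg16*, -0.74 for *Tff3*, -0.51 for *Fcgbp*, -0.49 for *Clca1* and -0.22 for *Spink4*. All groups overlapped, with exact permutation p-values from 0.2 to 0.7. These values too moved with single mice. With 1 library left out, *Muc2* ranged from 0.25 (without DSS+BV 3) to 1.21 (without DSS 2), *Spdef* from 0.52 (without DSS 1) to 1.44 (without DSS 2), *Agr2* from 0.10 (without DSS 1) to 0.96 (without DSS 2) and *Atoh1* from -0.066 (without DSS 1) to 0.53 (without DSS 2). Without DSS 3, *Zg16* was at -0.27, *Tff3* at -0.22, *Fcgbp* at -0.19 and *Clca1* at 0.12, and *Spink4* was at -0.014 without DSS 2.

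A list of 32 further genes of goblet cell maturation and secretion had 31 in the table and 29 tested. Log2 fold changes were above 0 for 23 and below 0 for 6, with a median of 0.47, where 48.5% of all tested genes were above 0. The pan-epithelial list had a close median, 0.46, with 12 of 12 above 0, so this shift was not particular to goblet cell genes. No gene of the list was called by edgeR, 4 had an unadjusted p-value under 0.05, all higher in DSS+BV, where 3.4% of all tested genes did so. DESeq2 called 1, *Ang4*, where it called 0.291% of its genes higher. The median of the goblet cell list lay between 0.18 and 0.74 with 1 library left out. The 6 genes below 0 were *Retnlb* (-1.10), *Rep15* (-0.28), *Vamp8* (-0.23), *Gfi1* (-0.15), *Foxa2* (-0.13) and *Xbp1* (-0.12). *Retnlb* had 60.9, 320 and 74.9 CPM in DSS mice, against 45.2, 99.7 and 67.2 CPM in DSS+BV mice (edgeR adjusted p-value 0.538).

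*Ang4*, an antimicrobial ribonuclease secreted into the gut lumen, had 2.03, 7.95 and 3.26 CPM in DSS 1, 2 and 3, against 16.0, 19.9 and 37.7 CPM in DSS+BV 1, 2 and 3. The groups did not overlap, and each group ran in the library order of *Muc2*. It had a log2 fold change of 2.47 (SE 0.58, 95% interval 1.09 to 3.86), with an adjusted p-value of 0.245 with edgeR and 0.00106 with DESeq2. *Foxa1*, a forkhead factor of the secretory lineages, had 51.8, 78.7 and 46.1 CPM in DSS mice, against 81.2, 85.8 and 85.0 CPM in DSS+BV mice. The groups were again apart, by little (log2 fold change 0.51, SE 0.21, edgeR adjusted p-value 0.397). *Ang4* and *Foxa1* were the only 2 of the 29 tested genes that were higher in every DSS+BV library. Of all tested genes 6.36% were, so such separation was about as common in this list as elsewhere. *Nlrp6*, a sensor linked to mucus secretion, had 107, 208 and 105 CPM in DSS mice, against 191, 244 and 265 CPM in DSS+BV mice, with DSS 2 inside the DSS+BV range (log2 fold change 0.74, SE 0.30, edgeR adjusted p-value 0.396). *Reg4*, a secreted lectin-like protein, had 59.5, 17.2 and 11.2 CPM in DSS mice, against 54.5, 495 and 40.8 CPM in DSS+BV mice, so its log2 fold change of 2.75 (edgeR adjusted p-value 0.398) came with 1 high library.

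**Figure D5:**
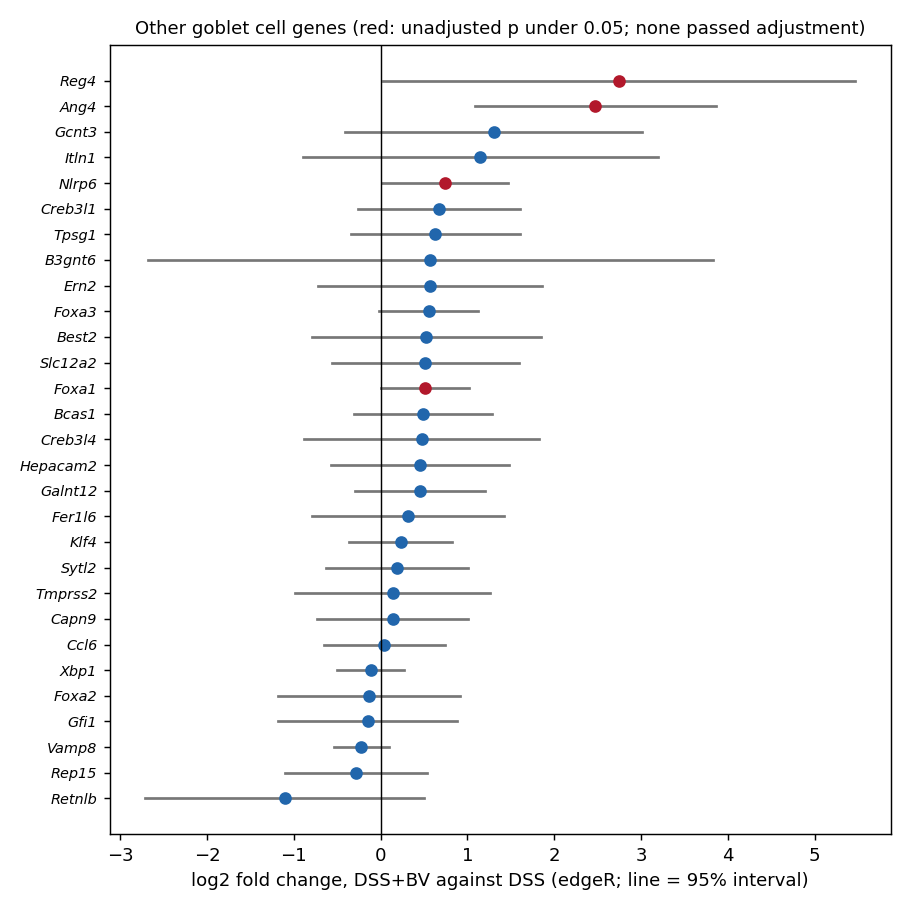
Log2 fold change of DSS+BV against DSS with 95% intervals (edgeR) for the 29 tested genes of the goblet cell maturation and secretion list, red where the unadjusted p-value was under 0.05. The 4 red points, *Reg4*, *Ang4*, *Nlrp6* and *Foxa1*, lie above 0, and none passed the adjusted threshold.

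*Foxa3* (log2 fold change 0.56, edgeR adjusted p-value 0.406) and the mucin glycosyltransferase *Gcnt3* (1.30, edgeR adjusted p-value 0.501) were next by p-value. *Gcnt3* had 48.7, 197 and 122 CPM in DSS mice, against 86.2, 306 and 515 CPM in DSS+BV mice, overlapping between them. *Tff1* and *Tff2*, trefoil genes of the stomach, were at most 0.249 CPM in any library and were not tested. *Muc5ac* and *Muc5b*, gel-forming mucins of stomach and airway, were at most 0.0659 CPM, and *Muc6* lay between 0.0582 and 6.07 CPM.

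Notch signalling, which represses *Atoh1* in progenitors, gave no call among its 19 tested genes of 20, with a median log2 fold change of -0.04. Of the 19, 4 were lower in every DSS+BV library, where 11.3% of all tested genes were, and 0 were higher, where 6.36% were. *Nrarp*, a feedback target of Notch, had 13.9, 19.4 and 11.2 CPM in DSS mice, against 19.4, 26.6 and 27.0 CPM in DSS+BV mice (log2 fold change 0.71, edgeR adjusted p-value 0.361). *Hey1*, another Notch target, had 3.89, 4.97 and 7.04 CPM in DSS mice, against 2.64, 3.12 and 3.54 CPM in DSS+BV mice (-0.77, edgeR adjusted p-value 0.392). These 2 had the only unadjusted p-values under 0.05 of the list, in opposite directions, where 12.5% of all tested genes had one. DESeq2 called 0 of its genes.

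Type 2 cytokines and IL-22 are known signals for goblet cells. *Il4* and *Il13* were listed with at most 0.0621 CPM and *Il25* with at most 0.126 CPM, under the filter. *Il22* was tested, with 2.33, 0 and 5.59 CPM in DSS 1, 2 and 3, against 7.65, 4.84 and 0.0632 CPM in DSS+BV 1, 2 and 3. The groups overlapped for it (log2 fold change 0.66, edgeR adjusted p-value 0.883). Of the 8 tested genes of this list of 11, 0 were called by edgeR. DESeq2 called 1, *Il33*, where it called 1.78% of its genes lower. An unadjusted edgeR p-value under 0.05 was found for 2, both lower, against 9.12% of all tested genes. *Il33*, an alarmin of stromal and epithelial cells, had 50.1, 50.3 and 62.4 CPM in DSS 1, 2 and 3, against 15.5, 23.9 and 11.9 CPM in DSS+BV 1, 2 and 3. The groups were apart, with a log2 fold change of -1.67 (SE 0.27) and an adjusted p-value of 0.144 with edgeR and 2.46e-05 with DESeq2. Of the 8 tested genes, 2 were lower in every DSS+BV library, where 11.3% of all tested genes were. *Il4ra*, the receptor chain for IL-4 and IL-13, had 164, 137 and 227 CPM in DSS mice, against 108, 101 and 122 CPM in DSS+BV mice (-0.67, edgeR adjusted p-value 0.329).

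Markers of other cell types in the tissue were set beside these values. All 8 fibroblast genes had a log2 fold change below 0, with a median of -1.03. EdgeR called 0 of them and 7 had an unadjusted p-value under 0.05, where 9.12% of all tested genes were lower at that threshold. DESeq2 called 4 lower, where it called 1.78% of its genes lower. The summed level of the fibroblast genes was 3955 to 4218 CPM in DSS mice against 1444 to 2099 CPM in DSS+BV mice. Of 8 leukocyte genes, 7 were below 0 and 2 were called lower by edgeR, where 0.0892% of all tested genes were. They were the neutrophil genes *S100a8* (-4.42, edgeR adjusted p-value 0.0127) and *S100a9* (-4.19, edgeR adjusted p-value 0.0179). Both calls were lost without DSS 1, DSS 3, DSS+BV 2 or DSS+BV 3, with a replicate block and with the position covariate. EdgeR called 0 genes lower in all of these settings, so the loss was not particular to these 2 genes. Their groups were apart, and 3 of the 8 leukocyte genes were lower in every DSS+BV library, where 11.3% of all tested genes were. *S100a8* had 46.3, 30.4 and 39.1 CPM in DSS mice, against 1.85, 1.46 and 2.09 CPM in DSS+BV mice. DESeq2 adjusted p-values were 6.88e-44 for *S100a8* and 2.53e-34 for *S100a9*. The summed leukocyte level ranged from 286 to 629 CPM in DSS and from 125 to 408 CPM in DSS+BV. Smooth muscle genes had a median of -0.17. The Paneth cell defensins *Defa24* and *Defa30* were at most 0.126 CPM in any library. The 2 tested genes of the Paneth cell list were expressed. *Lyz1* lay between 9.93 and 32.6 CPM (log2 fold change -0.31, edgeR adjusted p-value 0.832). *Mmp7* lay between 0.233 and 2.84 CPM (1.21, edgeR adjusted p-value 0.603). The part of these cell types in the goblet cell values was not tested.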

How the data were processed

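Colon RNA of 3 DSS and 3 DSS+BV mice was sequenced, 1 library per mouse, after preparation with a SMARTer kit. The submitters' processing notes name HISAT2 2.1.0, Bowtie2 2.2.5, RSEM 1.2.8 and GRCm38.p6. The authors deposited expected counts per gene from RSEM, not scaled between libraries. The annotation and strand setting of the counting are not given in the sources used here, and multi-mapped reads may have been divided between genes.

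Expected counts were rounded, filtered with filterByExpr (minimum count 10, minimum total 15), and scaled with TMM. All 14579 retained genes were fitted in R 4.3.3 with edgeR 4.0.16 (quasi-likelihood test, Benjamini-Hochberg adjustment). Log2 CPM used a prior count of 2. The biological coefficient of variation was 32.1%. Exact permutation tests used SciPy 1.17.1. Alternatives were a robust fit, a replicate block, upper-quartile or RLE factors, 2 other filters, DESeq2 1.42.0, other prior counts and denominators, and leaving out each library. A colon position covariate was added after the values were seen. The scripts were tested on simulated data.

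The 9 genes and the lists were chosen with earlier results of these data known. Named genes are the 9, every called gene of a list and up to 6 per list with the smallest p-value, list genes under the filter, and the 5 genes outside the lists most correlated with *Muc2*, *Clca1* and *Atoh1*. One of these genes is not reported here. *Cdx2*, *Cyp2c55*, *Hoxd13*, *Hoxb13* and *Hoxa13* were picked after their values were seen, and *Cdx2* is also in the pan-epithelial list. The goblet cell maturation genes with a log2 fold change below 0 and *Il22* are named as well. The columns of all 6 libraries were used.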

Additional observations from a re-analysis of the deposited data

How the results depend on the processing

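Of 386 alternatives computed for 34 results, 359 kept the direction and the side of the threshold. Some of them could not change a value. The replicate block leaves a difference of group means as it is, for the ratios to *Muc2* and the values relative to epithelium. The robust fit repeated the log2 fold changes of the 9 genes, and other prior counts hardly moved the ratios. The share kept is therefore no measure of robustness. The counts of the 9 goblet cell genes called lower and higher stayed at 0 under all alternatives. Over all tested genes, the 13 lower calls of edgeR became 281 with DESeq2, 0 with the replicate block, 0 with the colon position covariate and 0 to 3 with 1 library left out, and the 0 higher calls became 46 with DESeq2 and 0 to 4 with 1 library left out, the 4 without DSS+BV 1. In the goblet cell maturation list, DESeq2 called 1 gene higher. The log2 fold change reversed for *Fcgbp* to 0.29 without DSS 3, 0.077 without DSS+BV 2, 0.057 without DSS+BV 3 and 0.060 with the colon position covariate (range with 1 library left out -0.35 to 0.29). Without DSS 3 it reversed for *Zg16* (range -0.71 to 0.18), *Tff3* (-0.78 to 0.21) and *Clca1* (-0.62 to 0.57), each to the upper end, and without DSS 1 for *Spink4* (-0.043 to 0.54), to the lower end. The log2 ratio of *Agr2* to *Muc2* reversed to 0.16 without DSS+BV 3 (range -0.52 to 0.16). Relative to the pan-epithelial genes, the 9 genes together reversed to 0.074 without DSS 2, 0.14 without DSS 3 and 0.083 without DSS+BV 2 (range -0.34 to 0.14), *Atoh1* to -0.066 without DSS 1 and -0.0075 without DSS+BV 3 (range -0.066 to 0.53), and *Clca1* to 0.12 without DSS 3 (range -0.92 to 0.12). The cause of these changes was not tested. The labels do not say whether the replicate numbers pair the mice. Libraries with the same number had correlations of deviations from the group mean of 0.27, 0.25 and -0.30. Those with different numbers had values between -0.57 and 0.48. With 3 libraries a group, these correlations cannot settle whether mice were paired. With the replicate block, the log2 fold change was 1.21 for *Muc2* and 1.41 for *Spdef*, and 0 of the 9 genes were called. Depth did not limit these genes, since counting error was at most 6.10%.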

Other observations

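Some genes outside the lists followed the goblet cell genes closely over the 6 libraries, among 14440 genes compared. Among the highest for *Muc2* by Pearson correlation of log2 CPM were *Ascc1* (r = 0.995), *AU040320* (0.993), *Cbfa2t3* (0.992) and *Pde2a* (0.990). *Cbfa2t3* had 14.8, 29.6 and 21.6 CPM in DSS 1, 2 and 3, against 25.3, 26.9 and 38.9 CPM in DSS+BV 1, 2 and 3, lowest in DSS 1 and highest in DSS+BV 3 as *Muc2* was. The 5 highest for *Atoh1* were *Pde2a* (0.998), *Fbxo36* (0.997), *Enpp5* (0.996), *Tanc2* (0.993) and *Smim24* (0.992). Those for *Clca1* were *Skil* (0.993), *Cxcr6* (0.978), *Zfp513* (0.971), *Ptpre* (0.971) and *Zkscan6* (0.969). *Cxcr6*, a chemokine receptor of lymphocytes, had 2.03, 2.73 and 7.92 CPM in the DSS group and 4.48, 2.55 and 2.34 CPM in the DSS+BV group, highest in DSS 3 as *Clca1* was. These are the highest of many correlations over 6 shared libraries and were not tested.

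Among absorptive colonocyte genes, 8 of 12 had a log2 fold change above 0, with a median of 0.41. EdgeR called 0 of the 12, while 2 had an unadjusted p-value under 0.05, both higher, against 3.4% of all tested genes. DESeq2 called 2 higher, *Selenbp1* and *Car1*, where it called 0.291% of its genes higher. *Selenbp1*, a selenium-binding protein of differentiated epithelium, had 280, 444 and 317 CPM in the DSS group and 764, 971 and 879 CPM in the DSS+BV group (log2 fold change 1.33, edgeR adjusted p-value 0.145). *Car1*, a carbonic anhydrase, had 824, 1040 and 938 CPM in the DSS group and 924, 10447 and 8697 CPM in the DSS+BV group, high in DSS+BV 2 and DSS+BV 3 (log2 fold change 2.84, edgeR adjusted p-value 0.313). Of 10 enteroendocrine and tuft cell genes, 6 were above 0, with a median of 0.25, and edgeR and DESeq2 called 0, with 0 unadjusted p-values under 0.05.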
